A study of Mus musculus with 4 samples.

Results

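The genes described are 10 members of the bone morphogenetic protein (BMP) pathway, chosen by name from the 25437 gene names in the count tables: the ligands Bmp2 and Bmp4, the receptors Bmpr1a and Bmpr2, the receptor-activated SMADs Smad1 and Smad5, the inhibitory SMAD Smad6, and Id1, Id2 and Id3, which are target genes of the pathway. All 10 were present in each of 4 single-cell RNA libraries of mouse embryos, and each was read as CPM, the gene's UMIs (unique molecular identifiers, counts of captured RNA molecules) per 1000000 UMIs of the same cells, and as the share of cells with at least 1 UMI, in each lineage and library. The embryos were wildtype whole embryos of the B6C3F1/J strain, and each stage was 1 library of pooled embryos made on the BD Rhapsody Express system, a microwell platform for capturing single cells. The libraries were EDG7.5 and EDG9.5, which the series title places in embryonic diapause, the pause in which a blastocyst waits before implanting; Reactivated, labelled EDG9.5+30h E2, where E2 is the usual short name of the hormone estradiol; and E5.5, embryos that had implanted. Each of the first 3 pools came from 200 to 250 blastocysts flushed from the uterus, and the E5.5 pool from 50 embryos dissected out of implantation sites. The E5.5 embryos are labelled as day 5.5 with 0 hours of E2, so they are not a later time point of the Reactivated embryos. Stage, E2 and the way of recovery differ together between these libraries and cannot be told apart. An E4.5 stage named in the series text was not analysed here.

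There was 1 library per stage, so no test between stages was possible and no p-value is given. Values in brackets are exact 95% Poisson intervals of a CPM value, exact conditional intervals of a ratio, or exact Clopper-Pearson intervals of a share; all cover counting error only, not the difference between one pool of embryos and another. The libraries held 677 to 9560 cell barcodes and 9270833 to 87507141 UMIs, and 1 to 27 barcodes were shared by a pair of libraries. After filtering, 1658 cells of EDG7.5, 2451 of EDG9.5, 671 of Reactivated and 9263 of E5.5 were kept, clustered within each library without the 10 genes, and assigned to epiblast, endoderm or trophoblast by marker genes. As 1 marker for each lineage, the growth factor gene Fgf4 was 82.4 to 666 CPM in epiblast and at most 1.53 CPM elsewhere. The receptor gene Pdgfra was 145 to 583 CPM in endoderm and at most 5.21 CPM elsewhere. The transcription factor gene Gata2 was 225 to 966 CPM in trophoblast and at most 19.2 CPM elsewhere. These genes helped to name the clusters, so their separation was partly set in advance. Other markers were less confined. The epiblast marker Utf1 had 517 CPM in Reactivated endoderm. The endoderm marker Sparc had 548 CPM in Reactivated epiblast, and the trophoblast marker Tfap2c 272 CPM in EDG9.5 epiblast. Reactivated cells held more UMIs than EDG9.5 cells, with a median of 12530 against 4031 in epiblast, 14262 against 3571 in endoderm and 11413 against 3833.5 in trophoblast. CPM is a share of a cell's captured RNA. For members that moved in opposite directions on the 2 scales after E2, UMIs per cell are given too, and RNA content per cell cannot be told apart from capture in these libraries.

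BMP ligands bind a complex of type I receptors, such as the product of Bmpr1a, and type II receptors, such as the product of Bmpr2, which phosphorylates SMAD1 and SMAD5. These move to the nucleus with SMAD4 and switch on target genes, among them the Id genes, whose products bind basic helix-loop-helix factors and keep them off DNA, and Smad6, whose product feeds back to block the pathway. In the mouse embryo around implantation, BMP4 made by the extraembryonic ectoderm and BMP2 made by the visceral endoderm are known as signals that pattern the neighbouring epiblast, and BMP4 with ID proteins is known for holding mouse embryonic stem cells in self-renewal.

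The genes Id2, Id3 and Smad6 are shown by their promoters because Id2 and Id3 encode proteins of 1 family yet had different lineage patterns, and because Smad6 held the rarer of the motifs searched. The windows run from 250 bases before to 10 bases after the RefSeq start site in GRCm38.p6, the patch release of the mm10 build, 5′ to 3′ on the gene's strand, with motif matches in capitals. Id2 lies at chr12:25096083-25096342 on the minus strand, Id3 at chr4:136143572-136143831 on the plus strand and Smad6 at chr9:64022050-64022309 on the minus strand.
Id2: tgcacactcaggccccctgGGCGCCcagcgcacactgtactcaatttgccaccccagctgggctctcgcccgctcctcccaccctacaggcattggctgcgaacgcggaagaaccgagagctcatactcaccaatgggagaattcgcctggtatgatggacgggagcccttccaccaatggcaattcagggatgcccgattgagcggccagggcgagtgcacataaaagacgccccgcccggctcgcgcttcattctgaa
Id3: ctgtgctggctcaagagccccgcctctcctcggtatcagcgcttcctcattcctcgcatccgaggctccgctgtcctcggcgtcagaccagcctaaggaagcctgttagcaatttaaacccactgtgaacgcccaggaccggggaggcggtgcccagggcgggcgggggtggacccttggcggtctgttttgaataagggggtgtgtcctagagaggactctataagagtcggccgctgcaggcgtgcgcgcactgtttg
Smad6: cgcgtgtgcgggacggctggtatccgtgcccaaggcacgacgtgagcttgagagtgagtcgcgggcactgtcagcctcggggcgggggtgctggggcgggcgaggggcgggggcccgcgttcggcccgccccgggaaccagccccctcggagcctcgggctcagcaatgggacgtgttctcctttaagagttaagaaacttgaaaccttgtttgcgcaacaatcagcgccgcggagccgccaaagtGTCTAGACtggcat
The motifs were GGCGCC, a GC-rich element that BMP-activated SMADs are known to bind, and GTCTAGAC, the palindromic SMAD-binding element; each reads the same on both strands, and the matches do not overlap. In the full RefSeq windows, which end 50 bases after the start, GGCGCC occurred in 11.9% of 32851 windows (3898) and GTCTAGAC in 0.213% (70). The Id2 promoter held GGCGCC at bases 20 to 25 of the window. The Smad6 promoter held GTCTAGAC at bases 247 to 254, across the start site of this window at base 251. The annotated Smad6 gene begins further upstream, at 64022085, so the match lies within that gene. Id3 held neither string in this window. Of the 8 members with an entry, Bmpr1a, Bmpr2 and Smad5 also held GGCGCC and none but Smad6 held GTCTAGAC; Bmp2 and Id1 have no entry. These are matches of letters, and binding was not measured.

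Within diapause the 10 genes hardly differed. Of the 30 pairs of gene and lineage, none was past 2-fold between EDG9.5 and EDG7.5, where a ratio is taken after adding 10 CPM to both sides and is counted when the 2 sums hold at least 10 UMIs. Among all genes so counted, the share past 2-fold was 0.0403% higher and 0.0403% lower in epiblast, 0.159% higher and 0.0558% lower in endoderm, and 0.129% higher and 0.0774% lower in trophoblast, so counts of 0 among 10, 9 and 7 members sit beside a background near 0. The widest member difference was in endoderm Bmp2, at 0.38 on the log2 scale.

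After E2, 15 of the 30 pairs were past 2-fold in CPM, 7 of them higher and 8 lower. The split depends on the scale: in UMIs per cell 11 were higher and 0 lower, with TMM scaling 8 and 6, and in cells thinned to 1000 UMIs 3 and 8. The lower pairs in thinned cells were not all the same ones as in CPM. None of the lower calls named next was past 2-fold in UMIs per cell. Epiblast Id2, epiblast Smad1 and endoderm Smad5 turned direction there. The others stayed lower, trophoblast Smad1 (-0.71 on the log2 scale) and Smad5 (-0.70) the most. In epiblast, 1 of 9 counted members was higher (Id1), beside 7.26% of all genes, and 4 were lower (Id2, Id3, Smad1 and Smad5), beside 16.4%. In endoderm, 2 of 9 were higher (Id1 and Id2), beside 5.59%, and 2 were lower (Bmp2 and Smad5), beside 10.5%. In trophoblast, 4 of 9 were higher (Bmp4, Id2, Id3 and Smad6), beside 9.85%, and 2 were lower (Smad1 and Smad5), beside 11.4%. The median log2 ratio of the counted members was -0.92 in epiblast, -0.66 in endoderm and 0.95 in trophoblast, where the median over all genes was -0.23, -0.16 and -0.08. With 50 CPM added in place of 10, which draws in low genes, 3 of the 15 pairs were past 2-fold, and with TMM scaling epiblast Id2 (-0.94), epiblast Smad1 (-0.76) and endoderm Smad5 (-0.94) were under it.

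From Reactivated to E5.5, 8 of the 30 pairs were past 2-fold. In epiblast, 0 of 10 members were higher, beside 3.1% of all genes, and 1 was lower (Bmp4), beside 4.47%. In endoderm, 5 of 10 were higher (Bmp2, Id2, Id3, Smad1 and Smad6), beside 3.11%, and 0 were lower, beside 2.38%. In trophoblast, 0 of 10 were higher, beside 4.89%, and 2 were lower (Id2 and Id3), beside 3.01%. The members' median log2 ratio was 0.29 in epiblast, 1.06 in endoderm and 0.23 in trophoblast, where all genes had medians of 0.07, 0.04 and 0.09. The count of 8, 5 of them higher and 3 lower, was 13 with 1 CPM added and 4 with 50 CPM added; in UMIs per cell 3 were higher and 4 lower, and in thinned cells 7 and 2. The Reactivated library enters both this comparison and the preceding one.

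**Figure D1:**
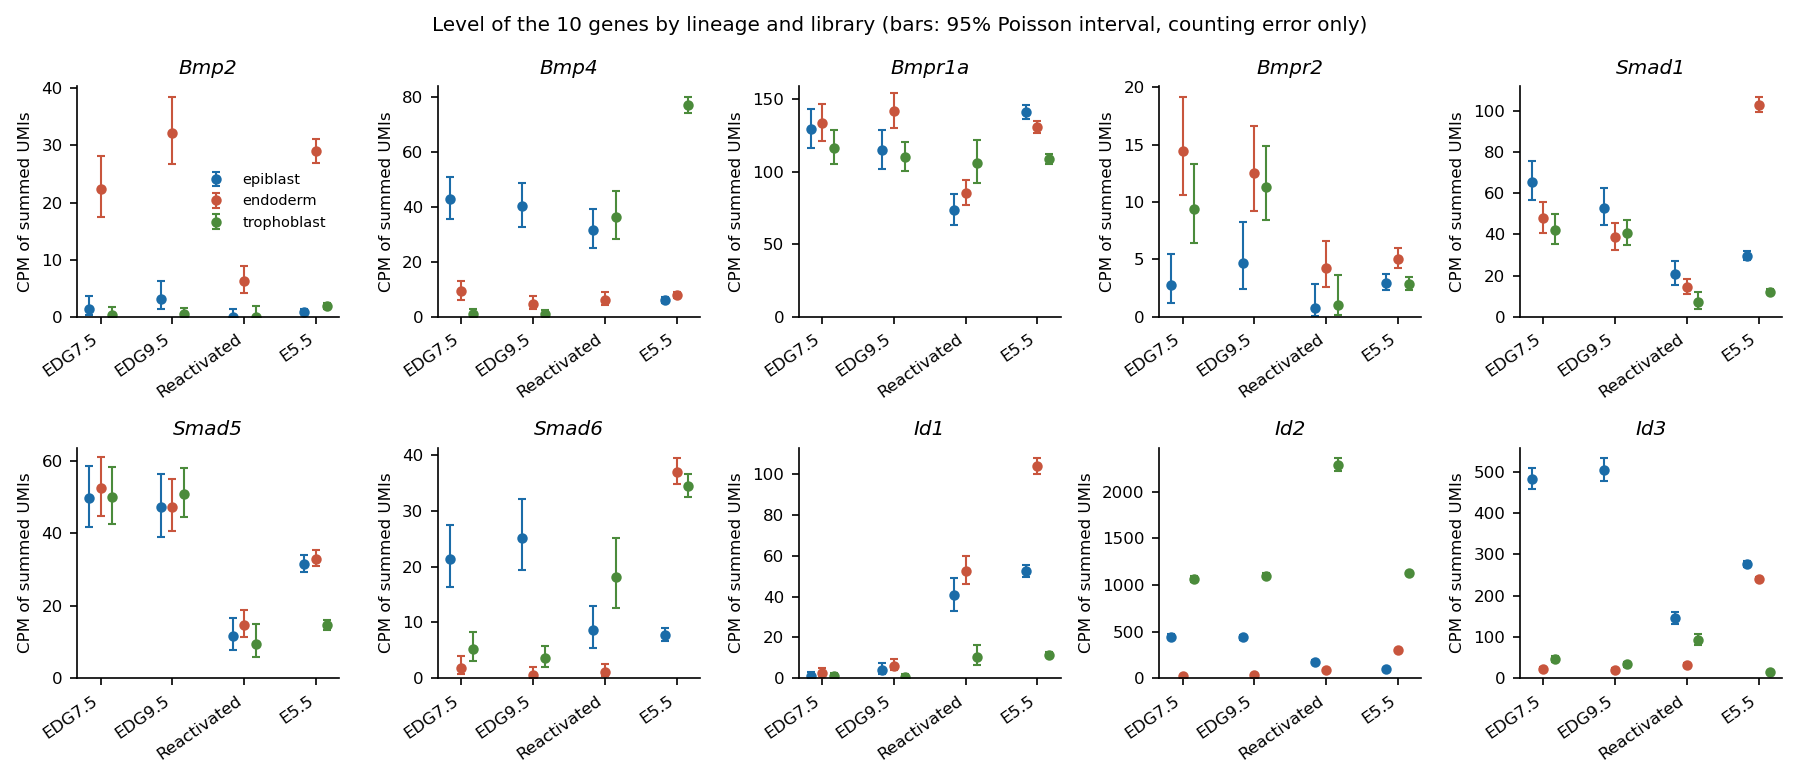
Level of each of the 10 genes in CPM of summed UMIs (y axis, linear, a separate scale for each gene) in the 4 libraries (x axis), with points colored by lineage and bars giving the 95% Poisson interval of the count. Bmp4 is highest in epiblast in EDG7.5 and EDG9.5 and in trophoblast in E5.5, Id1 is near 0 in both diapause libraries, and Id2 is highest in trophoblast in all 4 libraries.

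The ligands were found in different lineages. Bmp2 (chromosome 2, 133552159 to 133562896) was an endoderm transcript, at 22.4 CPM (17.6 to 28.2) in EDG7.5 and 32.2 (26.7 to 38.5) in EDG9.5, then 6.22 (4.16 to 8.93) in Reactivated against 29.0 (27.0 to 31.1) in E5.5. The Reactivated library was thus the low point, 5.18-fold (3.43 to 8.06) below EDG9.5 and 4.66-fold (3.22 to 7.01) below E5.5. In UMIs per endoderm cell the gap to EDG9.5 was narrower, 0.0957 against 0.134. No Bmp2 UMI was found in 205 Reactivated epiblast or 163 Reactivated trophoblast cells, counts whose intervals reach up to 1.44 and 1.85 CPM.

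Endoderm cells with a Bmp2 UMI were 9.98% (7.67 to 12.7) in EDG7.5 and 9.38% (7.56 to 11.5) in EDG9.5, then 7.59% (4.87 to 11.2) in Reactivated against 18.4% (17.0 to 19.8) in E5.5. With each cell thinned to 1000 UMIs the shares were 2.24%, 2.87%, 0.66% and 2.74%, so on equal depth EDG9.5 and E5.5 were close. Reactivated was lowest, but from 2 cells, and its interval (0.08 to 2.36) overlaps those of the other libraries. In E5.5 trophoblast, 1.63% of cells at a median depth of 8747 UMIs held a Bmp2 UMI, where 4.27% held one of the endoderm receptor gene Pdgfra. Of the 6 trophoblast clusters of that library, the one of 1429 cells held 78.7% of the lineage's Bmp2 UMIs, at 3.82 CPM (2.81 to 5.06).

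Bmp4 (chromosome 14, 46383525 to 46390669) differed in lineage across the libraries. Epiblast Bmp4 was 42.7 CPM (35.4 to 50.9) in EDG7.5 and 40.1 (32.7 to 48.7) in EDG9.5, then 31.6 (25.1 to 39.3) in Reactivated against 6.04 (5.08 to 7.13) in E5.5. Trophoblast Bmp4 was 0.91 CPM (0.19 to 2.66) in EDG7.5 and 1.11 (0.36 to 2.59) in EDG9.5, then 36.2 (28.3 to 45.5) in Reactivated against 76.8 (73.9 to 79.9) in E5.5. The epiblast intervals of the first 3 libraries overlap and E5.5 lies below them. The trophoblast level was high in the Reactivated library as well as in E5.5, and in Reactivated the intervals of the 2 lineages overlap. In UMIs per cell, epiblast Bmp4 was higher in Reactivated than in EDG9.5, 0.395 against 0.171. Endoderm Bmp4 stayed between 4.79 and 9.20 CPM.

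In trophoblast the Reactivated level of Bmp4 was 32.5-fold (13.3 to 103) that of EDG9.5, from 72 UMIs against 5, and E5.5 was 2.12-fold (1.68 to 2.72) above Reactivated. In epiblast E5.5 was 5.23-fold (3.93 to 6.93) below Reactivated. Trophoblast cells with a Bmp4 UMI were 0.526% in EDG9.5, then 27.6% (20.9 to 35.1) in Reactivated against 34.2% (32.7 to 35.8) in E5.5, and on equal depth 0.105%, 3.68% and 7.14%. The epiblast gene Fgf4, which trophoblast is known to lack, was found in 0.316%, 0% and 0.386% of the same cells.

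The type I receptor gene stayed within a narrow range of CPM. Bmpr1a (chromosome 14, 34411061 to 34503336), whose product binds the ligands, was detected in every lineage of every library, from 73.8 to 142 CPM. It was 129 CPM in epiblast, 133 in endoderm and 117 in trophoblast of EDG7.5, and 141, 131 and 109 CPM in E5.5. The Reactivated library was lower than EDG9.5 in epiblast, 73.8 CPM (63.6 to 85.1) against 115 (102 to 129), and in endoderm, 85.5 CPM (77.3 to 94.3) against 142 (130 to 155), but not in trophoblast, 106 CPM (92.6 to 122) against 110 (101 to 120). No comparison of Bmpr1a passed 2-fold in CPM, and per cell it was higher in Reactivated than in EDG9.5 in all 3 lineages, 0.922 against 0.491 UMIs in epiblast, 1.32 against 0.589 in endoderm and 1.30 against 0.522 in trophoblast.

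Bmpr2 (chromosome 1, 59764279 to 59878081), which encodes the type II receptor, was sparse. Its endoderm level was 14.4 CPM (10.6 to 19.2) in EDG7.5 and 12.5 (9.19 to 16.6) in EDG9.5, then 4.29 (2.62 to 6.62) in Reactivated against 5.05 (4.24 to 5.97) in E5.5. Trophoblast followed with 9.40, 11.3, 1.0 and 2.86 CPM, and epiblast lay between 0.78 and 4.72 CPM throughout. In CPM, both extraembryonic lineages were thus higher in diapause than in Reactivated and E5.5. Trophoblast was 11.3-fold (2.97 to 95.7) lower in Reactivated than in EDG9.5, from 2 and 51 UMIs, and -0.96 on the log2 scale with 10 CPM added, inside the 2-fold line. In UMIs per cell, trophoblast was 0.0123 in Reactivated against 0.0537 in EDG9.5, whereas endoderm was 0.066 against 0.0519, the other direction.

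Smad1 and Smad5 encode the SMADs that BMP receptors phosphorylate, and the CPM of both was lower in Reactivated than in EDG9.5 in all 3 lineages, with endoderm Smad1 just inside the 2-fold line. Smad5 (chromosome 13, 56703010 to 56742378) was even across lineages in diapause, from 47.2 to 52.5 CPM, and 11.7 CPM (7.90 to 16.7) in epiblast, 14.8 (11.5 to 18.7) in endoderm and 9.54 (5.75 to 14.9) in trophoblast of Reactivated. Against EDG9.5 these were 4.03-fold (2.68 to 6.23), 3.20-fold (2.41 to 4.29) and 5.34-fold (3.34 to 9.03) lower. In E5.5 the levels were 31.6, 33.0 and 14.6 CPM, with trophoblast the low lineage.

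Smad1 (chromosome 8, 79338395 to 79399428) was 53.1, 38.6 and 40.5 CPM in epiblast, endoderm and trophoblast of EDG9.5, and 20.7, 14.4 and 7.03 CPM in Reactivated. In E5.5 the lineages lay further apart, with 29.7 CPM (27.5 to 32.0) in epiblast, 103 (99.3 to 107) in endoderm and 12.2 (11 to 13.4) in trophoblast. Endoderm Smad1 was 7.18-fold (5.64 to 9.29) higher in E5.5 than in Reactivated. Cells with a UMI were 17.5% in Reactivated and 54.0% in E5.5, or 1.98% and 8.82% on equal depth.

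The lower SMAD levels after E2 depend on the scale. In UMIs per cell, Smad1 was 0.259 in Reactivated against 0.227 in EDG9.5 in epiblast and 0.221 against 0.16 in endoderm, and Smad5 was 0.228 against 0.196 in endoderm, so the direction turned in these 3 cases. Trophoblast was lower on both scales, with Smad1 at 0.0859 against 0.192 UMIs per cell and Smad5 at 0.117 against 0.241. Epiblast Smad5 was 0.146 against 0.202 UMIs per cell. In thinned cells, epiblast Smad1 (-0.89 on the log2 scale), epiblast Smad5 (-0.37) and endoderm Smad5 (-0.77) were lower by less than 2-fold.

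Smad6 (chromosome 9, 63953076 to 64022085), the inhibitory SMAD, was highest in epiblast in diapause and in the extraembryonic lineages in E5.5. Epiblast Smad6 was 21.3 CPM (16.3 to 27.4) in EDG7.5 and 25.2 (19.4 to 32.1) in EDG9.5, then 8.59 (5.38 to 13) in Reactivated against 7.76 (6.67 to 8.99) in E5.5. Trophoblast Smad6 was 5.16 CPM (3.0 to 8.26), 3.56 (2.03 to 5.78), 18.1 (12.7 to 25) and 34.5 (32.5 to 36.5) in the same order. Endoderm Smad6 was at most 1.84 CPM in the first 3 libraries and 37.0 CPM (34.7 to 39.4) in E5.5. Trophoblast was therefore higher than in diapause in both Reactivated and E5.5, and endoderm only in E5.5. In UMIs per cell, epiblast Smad6 was 0.107 in Reactivated against 0.108 in EDG9.5.

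The trophoblast ratio of Smad6 was 5.08-fold (2.75 to 9.81) from EDG9.5 to Reactivated, from 16 and 36 UMIs, and the endoderm ratio was 34.5-fold (14.7 to 107) from Reactivated to E5.5, from 5 and 1003 UMIs. Endoderm cells with a Smad6 UMI were 0.221% in EDG9.5, from 2 UMIs, and 22.8% (21.3 to 24.3) in E5.5, where the trophoblast gene Gata2 was found in 0.442% and 1.90% of the same cells.

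**Figure D2:**
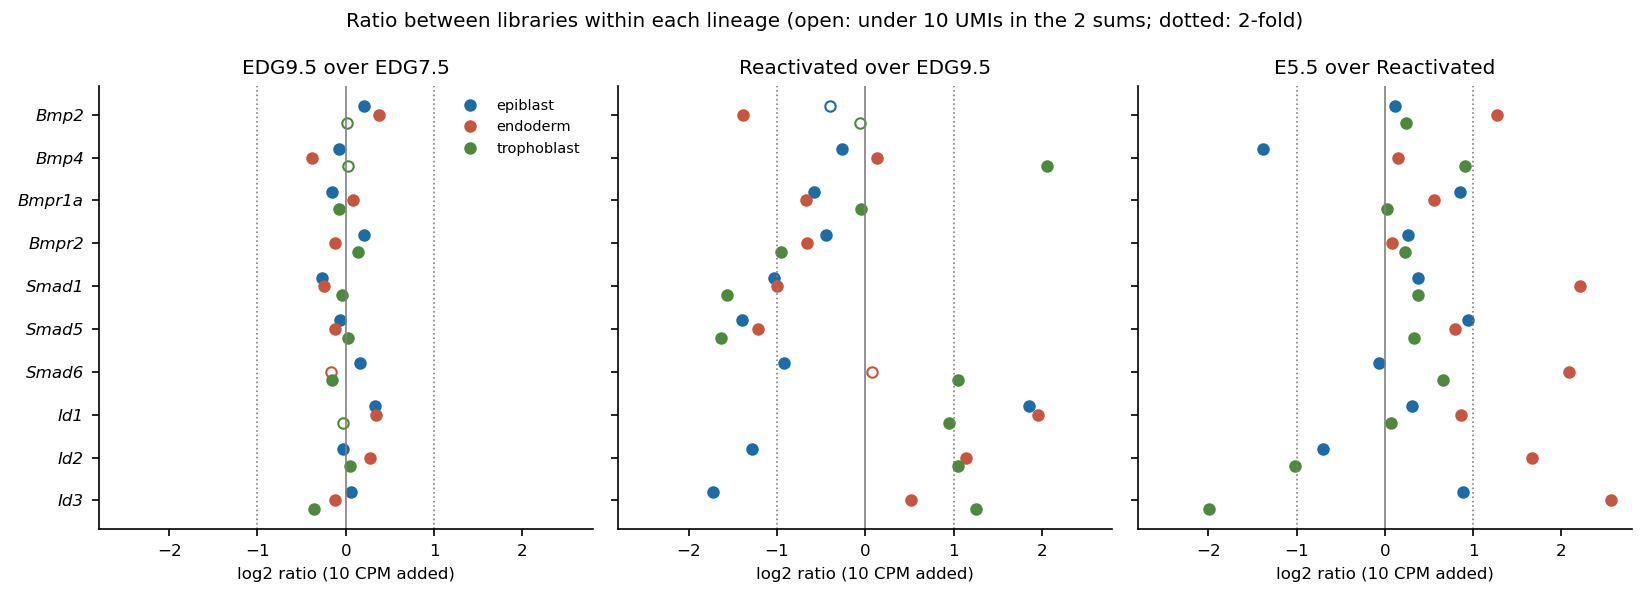
Log2 ratio of each gene between libraries after adding 10 CPM to both sides (x axis), with 1 row per gene, 1 panel per comparison and color by lineage; open points have under 10 UMIs in the 2 sums and dotted lines mark 2-fold. All points of the EDG9.5 over EDG7.5 panel lie inside the dotted lines, and Id2 and Id3 have points on both outer sides in each of the other panels.

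Id1, Id2 and Id3 encode inhibitors of basic helix-loop-helix factors, and each had a pattern of its own. Id1 (chromosome 2, 152736251 to 152737410) was nearly undetected in diapause, at 1.05 CPM in epiblast, 2.76 in endoderm and 0.91 in trophoblast of EDG7.5, and 3.93, 6.12 and 0.67 CPM in EDG9.5. In the Reactivated library it was 40.6 CPM (33.2 to 49.2) in epiblast, 52.7 (46.3 to 59.8) in endoderm and 10.5 (6.53 to 16.1) in trophoblast. In E5.5 it was 52.6 CPM (49.7 to 55.7), 104 (100 to 108) and 11.6 (10.5 to 12.8). All 3 lineages were higher in CPM after E2, and trophoblast was the lowest in Reactivated and E5.5.

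Against EDG9.5 the Reactivated level of Id1 was 10.3-fold (5.39 to 22.2) in epiblast, 8.61-fold (5.61 to 13.8) in endoderm and 15.8-fold (4.72 to 82.8) in trophoblast, where the EDG9.5 sum held 3 UMIs and the value with 10 CPM added, 0.95 on the log2 scale, stayed under 2-fold. Cells with an Id1 UMI were 17.6% (12.6 to 23.5) of Reactivated epiblast and 43.2% (37.6 to 49.0) of Reactivated endoderm, or 3.90% and 5.94% on equal depth, against 0.672% and 0.883% in EDG9.5. In trophoblast the equal-depth shares were 0% (0 to 2.24) in Reactivated and 0.105% in EDG9.5. These rest on 0 cells and 1 cell, so the higher level was not seen there. In Reactivated epiblast 13 of the 104 Id1 UMIs came from 1 cell.

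Id2 (chromosome 12, 25093799 to 25096092) had its highest level in trophoblast in every library, but was not confined to it. Its trophoblast level was 1065 CPM (1030 to 1101) in EDG7.5 and 1102 (1072 to 1133) in EDG9.5, then 2292 (2226 to 2359) in Reactivated against 1129 (1117 to 1140) in E5.5. Its epiblast level was 447 CPM (423 to 472), 437 (412 to 464), 174 (158 to 191) and 103 (99.1 to 107) in the same order. Its endoderm level was 27.0 CPM (21.7 to 33.3), 34.6 (28.9 to 41.1), 88.3 (80.0 to 97.3) and 303 (297 to 310). Trophoblast was highest throughout, while epiblast was above endoderm in Reactivated and below it in E5.5.

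After E2 the CPM of Id2 was 2.51-fold (2.25 to 2.81) lower in epiblast, 2.55-fold (2.09 to 3.13) higher in endoderm and 2.08-fold (2.0 to 2.17) higher in trophoblast. Per cell, epiblast Id2 was 2.18 UMIs in Reactivated against 1.87 in EDG9.5, so that the epiblast direction turned with the scale, whereas endoderm had 1.36 against 0.143 and trophoblast 28.0 against 5.22. Trophoblast cells with an Id2 UMI were 87.3% in EDG9.5 and 97.5% in Reactivated, or 56.8% and 78.5% on equal depth. Endoderm cells with an Id2 UMI were 8.94% in EDG9.5 and 53.5% in Reactivated, where Gata2 was found in 0.442% and 0.66% of the same cells, but on equal depth 2.98% (1.97 to 4.31) and 5.94% (3.56 to 9.23), intervals that overlap. The endoderm log2 ratio of 1.14 was 0.65 in thinned cells, under 2-fold. From Reactivated to E5.5, Id2 was 3.44-fold (3.11 to 3.80) higher in endoderm and 2.03-fold (1.97 to 2.09) lower in trophoblast. The trophoblast value, -1.02 on the log2 scale, was -0.81 and under 2-fold without the 435 E5.5 cells of the cluster led by placental lactogen genes. In thinned cells it was -0.93, also under 2-fold.

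Id3 (chromosome 4, 136143822 to 136145392) was an epiblast gene in diapause. Epiblast Id3 was 484 CPM (459 to 510) in EDG7.5 and 505 (478 to 533) in EDG9.5, then 145 (131 to 161) in Reactivated against 276 (270 to 283) in E5.5. Endoderm Id3 was 22.4 CPM (17.6 to 28.2), 19.7 (15.5 to 24.7), 32.4 (27.4 to 38.0) and 241 (235 to 246). Trophoblast Id3 was 45.5 CPM (38.5 to 53.4), 33.4 (28.2 to 39.1), 93.4 (80.5 to 108) and 16.1 (14.7 to 17.5). The Reactivated library was the low point of epiblast and the high point of trophoblast.

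Epiblast Id3 was 3.48-fold (3.10 to 3.91) lower in Reactivated than in EDG9.5 in CPM, and 1.81 against 2.16 UMIs per cell. Trophoblast Id3 was 2.8-fold (2.25 to 3.5) higher after E2 and 5.82-fold (4.90 to 6.89) lower in E5.5 than in Reactivated. In thinned cells its log2 ratio after E2, 1.25 with all UMIs, was 0.84 and under 2-fold, and 3.47% (2.40 to 4.84) of trophoblast cells in EDG9.5 and 7.36% (3.86 to 12.5) in Reactivated held an Id3 UMI. Endoderm Id3 was 7.43-fold (6.32 to 8.79) higher in E5.5 than in Reactivated, and cells with a UMI went from 20.5% (16.1 to 25.4) to 69.1% (67.4 to 70.8), or 3.63% to 20.4% on equal depth. Id1, Id2 and Id3 were thus all higher in E5.5 endoderm than in Reactivated endoderm, the first by 1.97-fold (1.73 to 2.25).

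Fewer members stood apart by lineage in the Reactivated library than in diapause. In EDG7.5, 5 of 10 members were at least 2-fold higher in 1 lineage than in both others (Bmp2 in endoderm, Bmp4, Id3 and Smad6 in epiblast, Id2 in trophoblast), beside 12.1% of all genes. In EDG9.5 the count was 5 of 10, the same genes and lineages, beside 12.1%. In Reactivated it was 1 of 10 (Id2 in trophoblast), beside 14.8%. In E5.5 it was 4 of 10 (Bmp2 and Smad1 in endoderm, Bmp4 and Id2 in trophoblast), beside 8.95%. These counts move with the amount added: they were 2 in EDG7.5 and 2 in EDG9.5 with 50 CPM added and 3 in Reactivated with 1 CPM added, and no test of their difference was made.

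Within the E5.5 lineages, clusters drawn without the 10 genes differed widely in them. Clusters were named from marker lists by a rule set after values were seen, and clusters without a clear lead stay unnamed. Bmp4 was concentrated in the trophoblast cluster of 1429 cells named extraembryonic ectoderm-like, led by Esrrb and Cdx2, at 175 CPM (168 to 183): it held 39.4% of trophoblast cells and 86.4% of the Bmp4 UMIs. A smaller cluster of 59 cells with the same name had 137 CPM (95 to 192), and an unnamed cluster of 748 cells led by Irx3 and Gjb5 had 37.8 CPM (33.4 to 42.7). The ectoplacental-like clusters of 785 and 172 cells had 4.23 and 1.34 CPM, and the giant cell-like cluster of 435 cells 4.47 CPM.

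Id2 and Smad6 were high in the same trophoblast clusters as Bmp4, whereas Id1 was not, and Id3 was raised only in the unnamed one of them. Id2 was 1654 CPM in the large extraembryonic ectoderm-like cluster, 2027 CPM in the unnamed cluster, 222 CPM and 265 CPM in the ectoplacental-like clusters and 85.8 CPM in the giant cell-like one. Smad6 was 63.0 CPM (58.7 to 67.5) in the large extraembryonic ectoderm-like cluster and 30.5 CPM in the unnamed one, against 5.38 to 11.5 CPM in the ectoplacental-like and giant cell-like clusters. Id1 lay between 6.13 and 18.8 CPM in all 6 clusters, and Id3 was highest in the ectoplacental-like cluster of 172 cells, at 84.1 CPM (70.0 to 100), against 6.60 CPM (5.26 to 8.18) where Bmp4 was highest. The unnamed cluster came next for Id3, at 32.7 CPM (28.6 to 37.3), above the larger ectoplacental-like cluster at 10.8 CPM. The giant cell-like cluster, with Pecam1 and Cdh5 among its leading genes, held 1044 CPM of the 7-gene endothelium list and the larger ectoplacental-like cluster 346 CPM, against at most 28.7 CPM in the other trophoblast clusters; the part of such cells in these values was not tested.

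In 4 of the 5 clusters of E5.5 endoderm, Bmp2 and Id2 ran in opposite orders. The anterior visceral endoderm-like cluster of 496 cells, led by Cer1 and Lefty1, had Bmp2 at 80.9 CPM (72.5 to 89.9), Id2 at 48.2 CPM (41.8 to 55.3) and Smad6 at 7.05 CPM (4.76 to 10.1). The unnamed cluster of 610 cells led by Fabp1 and Cited1 had Bmp2 at 1.52 CPM (0.69 to 2.88), Id2 at 624 CPM (604 to 644) and Smad6 at 56.6 CPM (50.7 to 63.0). The visceral endoderm-like cluster of 793 cells was between them for Bmp2 and Id2, at 15.3 and 347 CPM, and had 64.5 CPM of Smad6. The unnamed cluster of 682 cells led by Afp had 33.1, 135 and 23.1 CPM of Bmp2, Id2 and Smad6, so that over these 4 clusters Id2 was higher where Bmp2 was lower. The fifth endoderm cluster, parietal endoderm-like, did not follow that order, with Bmp2 at 35.1 CPM and Id2 at 283 CPM.

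Id1 and Id3 followed another line in E5.5 endoderm. The parietal endoderm-like cluster of 413 cells had Id1 at 17.2 CPM (12.9 to 22.6), Id3 at 15.9 CPM (11.7 to 21.1), Smad1 at 40.4 CPM and Smad6 at 1.66 CPM. The other endoderm clusters had Id1 from 92.9 to 146 CPM, Id3 from 236 to 312 CPM and Smad1 from 74.0 to 138 CPM. In the parietal endoderm-like cluster 8.96% of cells held an Id1 UMI and 6.54% an Id3 UMI, at a median depth of 7017 UMIs. The 4 epiblast clusters were alike, with Id1 from 48.0 to 58.3 CPM and Id3 from 214 to 292 CPM.

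**Figure D3:**
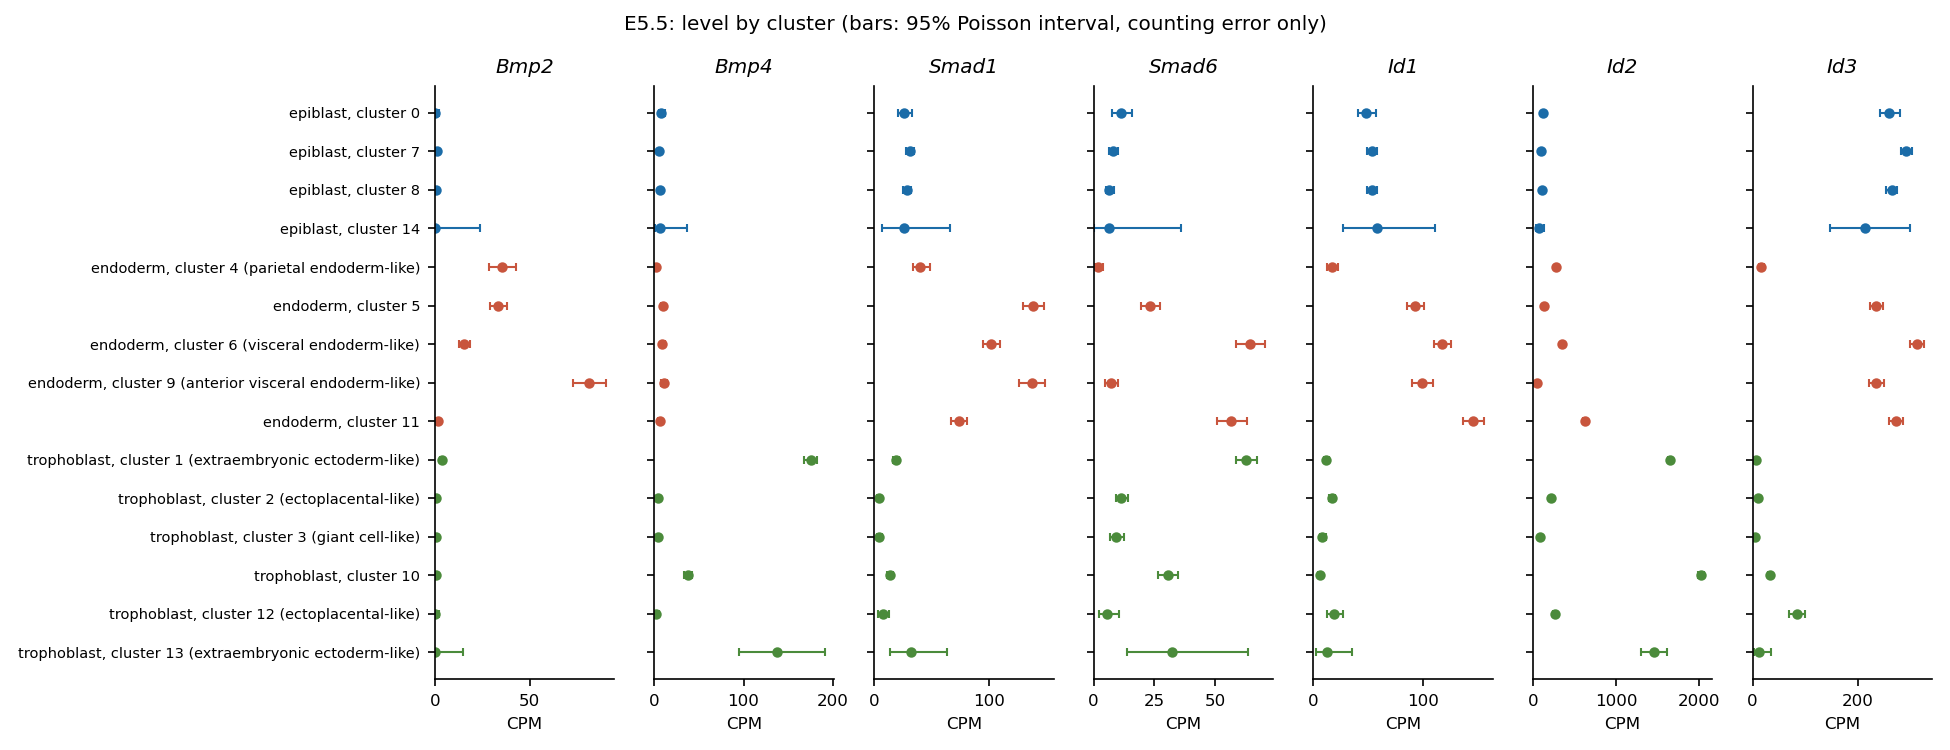
Levels of 7 of the genes in the E5.5 clusters, in CPM of summed UMIs (x axis, linear, a separate scale per gene), with 1 row per cluster, color by lineage and bars giving the 95% Poisson interval. Bmp4 is highest in the extraembryonic ectoderm-like clusters, Bmp2 in the anterior visceral endoderm-like cluster, and Id1 and Id3 are low in the parietal endoderm-like cluster and in most trophoblast clusters.

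The Reactivated trophoblast also differed by cluster. Its ectoplacental-like cluster of 53 cells, led by Hand1 and Cald1, had Bmp4 at 67.3 CPM (50.3 to 88.3), 72.2% of the lineage's Bmp4 UMIs. The unnamed cluster of 77 cells led by Crip1 had 22.7 CPM (13.9 to 35.1), and that of 33 cells led by BC051665 had none. The ectoplacental list scored highest in these 33 cells too, 0.76 against 0.15 for the next list. They stay unnamed because none of its genes was among their leading genes. Cd52, Tfap2c and Elf5 were also among the leading genes of the 53 cells, beside Hand1, Ascl2 and Plac1 of the ectoplacental list. Id2 was highest in the 77 cells, at 3211 CPM (3094 to 3332), which also held the most Smad6, 37.5 CPM. Bmpr1a was highest in the 33 cells, at 269 CPM (216 to 330).

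In Reactivated endoderm the parietal endoderm-like cluster of 117 cells had Id1 at 69.2 CPM (57.4 to 82.6) and Id3 at 65.7 CPM, against Id1 at 39.4 and 46.5 CPM and Id3 at 17.4 and 7.05 CPM in the other 2 clusters. In E5.5 the parietal endoderm-like cluster was the lowest in both genes, so the order differed between the libraries. The 117 cells also held more of the decidual stroma list, 222 CPM with 3 of 10 genes at 0, than the other clusters, 8.69 and 8.46 CPM. The part of such RNA in the Id1 and Id3 values was not tested. In Reactivated epiblast, the cluster of 110 cells led by Pim2 and Otx2 had Id1 at 60.7 CPM (48.8 to 74.6) and Id3 at 105 CPM, and that of 95 cells led by Sox2 and Nanog had Id1 at 13 CPM (7.09 to 21.8) and Id3 at 201 CPM.

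In diapause epiblast, cells in clusters led by mitotic genes had less Id2 and Id3 as a share of their RNA. Id2 was 336 CPM in 84 such cells of EDG7.5 against 484 CPM in the main cluster, a ratio of 0.69 (0.60 to 0.80), and 254 against 471 CPM in EDG9.5, a ratio of 0.54 (0.43 to 0.66). Id3 was 353 against 525 CPM, a ratio of 0.67 (0.58 to 0.77), and 326 against 537 CPM, a ratio of 0.61 (0.50 to 0.73). The mitotic clusters held more UMIs per cell, with medians of 8051.5 against 5260 in EDG7.5 and 4995 against 3928.5 in EDG9.5, and in EDG7.5 the values per cell were close, 2.7 against 2.67 UMIs for Id2 and 2.85 against 2.90 for Id3. In EDG9.5 the mitotic cluster was lower per cell too, with 1.39 against 1.93 UMIs for Id2 and 1.79 against 2.21 for Id3. In EDG9.5 endoderm, a cluster of 107 cells led by Cubn and Spink3 had Bmp2 at 75.1 CPM and Id1 at 17.4 CPM, above the 2 large clusters of that lineage, with Bmp2 at 30.1 and 16.2 CPM and Id1 at 4.43 and 2.79 CPM.

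Among the 72 other pathway genes that were listed, 69 were in the files. Their values are given in CPM only, so a lower level after E2 is a lower share of RNA and may not hold in UMIs per cell. None of the other ligands, receptors, SMADs, inhibitors, antagonists, proteases, target genes or ID partners that could be counted was past 2-fold between the diapause libraries. Of the other BMP-type ligands, Bmp8b was higher in trophoblast after E2, as Bmp4 was. It had 2.89 CPM in EDG9.5 against 53.7 in Reactivated and 35.7 in E5.5. Gdf3, a ligand of the same superfamily, was an epiblast transcript, at 199 CPM in EDG9.5, then 183 in Reactivated against 51.0 in E5.5. In endoderm, Bmp8a and Bmp6 had 31.9 and 17.0 CPM in EDG9.5, 13.5 and 9.22 CPM in Reactivated, and 1.25 and 8.67 CPM in E5.5. In E5.5, Bmp8a was higher in trophoblast than in endoderm, at 4.19 CPM.

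Secreted antagonists, which bind BMPs outside the cell, differed by lineage. Of 16 listed, 8 could be counted in endoderm after E2, with 1 higher, beside 5.59% of all genes, and 2 lower, beside 10.5%. From Reactivated to E5.5, 3 of 11 were higher in endoderm, beside 3.11%. Cer1 had 0.86 CPM in Reactivated endoderm and 82.5 CPM in E5.5, and Fst, the gene of follistatin, 1.93 and 91.0 CPM. Crim1 in trophoblast had 1.78 CPM in EDG9.5, then 67.3 in Reactivated against 172 in E5.5. Fstl1 in epiblast had 111 CPM in Reactivated and 13.2 in E5.5. Noggin, Nog, reached at most 11.7 CPM, in E5.5 endoderm.

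**Figure D4:**
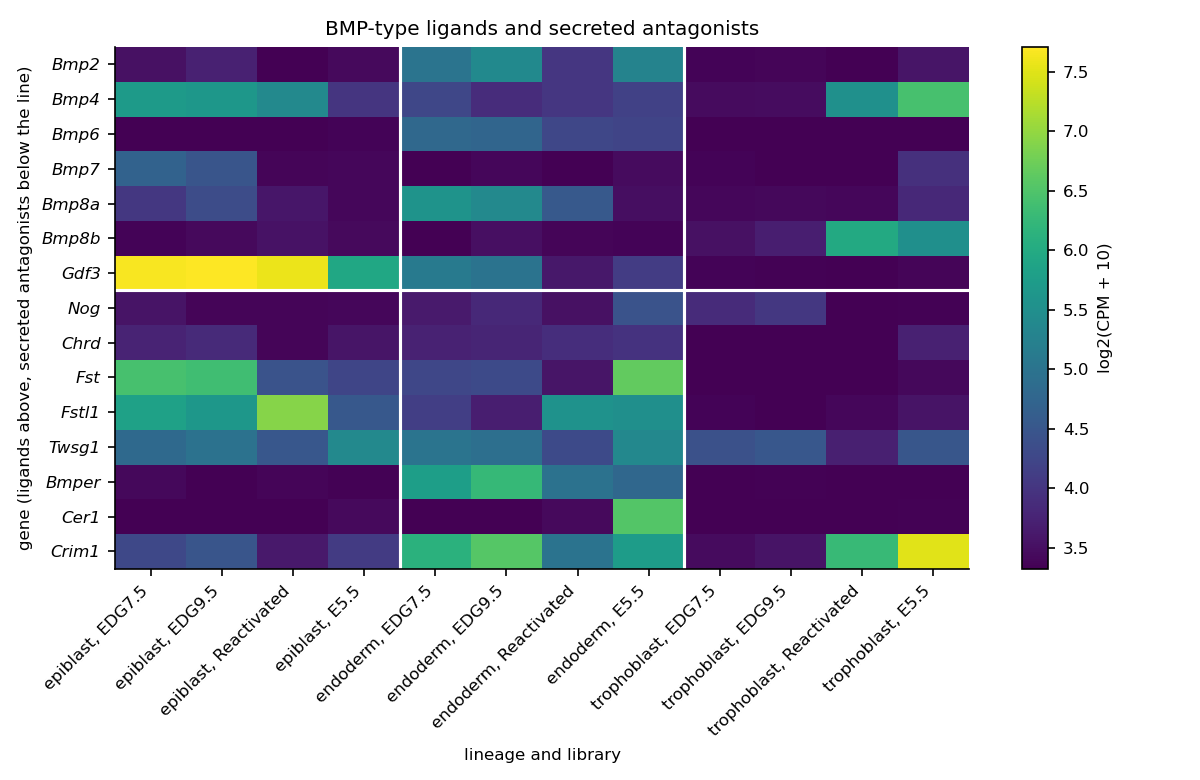
Heat map of log2(CPM + 10) for listed BMP-type ligands (rows above the white line) and secreted antagonists (rows below it) in each lineage and library (columns). Bmp4, Bmp8b and Crim1 are brighter in trophoblast of Reactivated and E5.5 than of the diapause libraries, and Cer1 and Fst are bright in E5.5 endoderm.

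Of 10 other target genes, 6 could be counted in each lineage after E2. In epiblast 3 were lower, beside 16.4% of all genes, and in endoderm 3 were lower, beside 10.5%. None was higher in either, beside 7.26% and 5.59%. In trophoblast 3 were lower, beside 11.4%, and 1 was higher, beside 9.85%. Tbx3, a T-box factor, was 1048, 962 and 103 CPM in epiblast, endoderm and trophoblast of EDG9.5 and 103, 99.0 and 9.04 CPM in Reactivated. Id4, the fourth Id gene, was 99.9 CPM in EDG9.5 epiblast, 15.6 in Reactivated and 7.33 in E5.5. Msx2 in trophoblast was 78.5 CPM in EDG9.5 and 9.04 in Reactivated. Msx1 in trophoblast was 150 CPM in Reactivated and 10.3 in E5.5.

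Of 7 intracellular and membrane inhibitors, 3 were lower in epiblast after E2, beside 16.4% of all genes. In endoderm 1 was lower, beside 10.5%, and in trophoblast 1, beside 11.4%. None was higher in any lineage, beside 7.26% in epiblast, 5.59% in endoderm and 9.85% in trophoblast. Smad7, the second inhibitory SMAD, was 208 CPM in EDG9.5 epiblast and 86.2 in Reactivated, beside the lower CPM of Smad6 there. In trophoblast Smad7 was 194 and 105 CPM, where Smad6 was higher. Tob1 was 116 and 17.6 CPM in trophoblast. Fkbp1a, whose product holds type I receptors inactive, was detected throughout, from 280 to 779 CPM. Of 8 other SMADs and cofactors, 7 could be counted in epiblast after E2 and 2 were higher, beside 7.26% of all genes, among them Zfp423, which encodes a zinc finger partner of BMP SMADs, at 5.11 CPM in EDG9.5, then 55.4 in Reactivated against 21.4 in E5.5. Of the same list after E2, 1 of 7 was lower in endoderm, beside 10.5%, and 2 of 6 in trophoblast, beside 11.4%. Smad4, the shared partner SMAD, was 182 CPM in EDG9.5 trophoblast and 61.8 in Reactivated. The convertase gene Pcsk6 was 90.1 CPM in Reactivated epiblast and 7.42 in E5.5. Acvr2a, which encodes a type II receptor, was 27.5, 27.4 and 15.3 CPM in epiblast, endoderm and trophoblast of EDG9.5 and 5.07, 12.6 and 9.04 CPM in Reactivated. Of 9 other receptors, 5 could be counted in epiblast after E2 and 2 were lower, beside 16.4% of all genes; none was past 2-fold from Reactivated to E5.5. Of the 3 helix-loop-helix partners of ID proteins, with Tcf12 at 109 CPM in EDG9.5 epiblast and 60.5 in Reactivated, 1 was lower in endoderm after E2, beside 10.5% of all genes, and none was past 2-fold from Reactivated to E5.5. From Reactivated to E5.5, 3.1% of all genes were past 2-fold higher and 4.47% lower in epiblast. The shares were 3.11% and 2.38% in endoderm, and 4.89% and 3.01% in trophoblast. Counts this small, beside these shares, are given as a description only.

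The genes whose log2(CPM + 10) over the 12 sums of lineage and library was most like a member's were sought among 3879 genes that reached 100 CPM, by Pearson correlation, as a description. For Bmp4 they were Nup62cl (0.93), Pttg1 (0.91) and Bcat1 (0.89). For Id1 they were Slc7a7 (0.99), Fgf5 (0.95) and Cldn6 (0.94). For Id2 they were Eomes (0.91), Tfap2c (0.90) and Lgals1 (0.90), the first 2 of which were among the trophoblast markers used to name cells. For Id3 they were Adi1 (0.86), Bcas2 (0.85) and Fn1 (0.85). The 12 sums come from 4 libraries, so 3 points share each library and its depth.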

How the data were processed

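Each library was deposited as a table of counts per gene and cell barcode, read here as UMI counts. Per the submitters' processing notes, the tools were STAR 2.7.1a, UMI-tools 1.0.1, Subread and featureCounts 1.6.4, with the mm10 build; the annotation, strand setting and barcode rule were not given in the sources used here, so reads of overlapping or antisense genes cannot be told apart.

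Cells were kept from 1000 UMIs and 500 genes upward where mitochondrial counts were under 25%, and doublets marked by Scrublet were removed. Each library was clustered without the 10 genes (scanpy 1.11.5; 2000 variable genes, 30 principal components, 15 neighbours, Leiden resolution 1). A cluster took the lineage whose markers led by at least 0.5 on the log2 scale with at least 3 markers at 20 CPM. With these settings all kept cells received a lineage. Counts were summed per lineage and library. Ratios add 10 CPM on the log2 scale where that is stated, and a change is counted past 2-fold with at least 10 UMIs in the 2 sums. Intervals are at 95% (scipy 1.17.1). Shares on equal depth come from cells thinned to 1000 UMIs. With 1 library per stage and cells not being replicates, no test was made; edgeR 4.0.16 gave the TMM scaling alternative only.

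All 10 members are named. Other pathway genes are named where they had the highest CPM of their list in a lineage or were past 4-fold with at least 50 UMIs; examples of these are given, and Nog and Smad7 were chosen after their values were seen. Genes most like a member are the 3 of highest Pearson correlation for Bmp4, Id1, Id2 and Id3, leaving out ribosomal protein, mitochondrial and predicted genes. The members and lists were chosen with earlier results of these data known, and the naming of clusters within a lineage followed a rule set after values were seen. Alternatives covered the added CPM, scaling, cell filters, clustering and depth. The calculations were tested on simulated data. Of the gene names, 21344 of 25437 match a RefSeq symbol.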

Additional observations from a re-analysis of the deposited data

Results flagged for a closer look

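In the comparison of Reactivated with EDG9.5, Id2 was past 2-fold in opposite directions in different lineages, with a log2 ratio (10 CPM added) of -1.28 in epiblast, 1.14 in endoderm and 1.05 in trophoblast. Id3 did the same, at -1.73 in epiblast and 1.25 in trophoblast. In the comparison of E5.5 with Reactivated, Id2 was 1.67 in endoderm and -1.02 in trophoblast, and Id3 was 2.56 in endoderm and -1.99 in trophoblast. In UMIs per cell, epiblast Id2 (0.21) and Id3 (-0.24) were not past 2-fold after E2, and in thinned cells neither were endoderm Id2 (0.65) and trophoblast Id3 (0.84). From Reactivated to E5.5, endoderm Id2 (0.97) was under 2-fold in UMIs per cell, and trophoblast Id2 (-0.93) in thinned cells. The differences between lineages were not tested, since each stage is 1 library, and the Reactivated library enters both comparisons.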

How the results depend on the processing

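With 1 CPM added in place of 10, the members past 2-fold numbered 1 for EDG9.5 over EDG7.5 (0 as reported) and 13 for E5.5 over Reactivated (8 as reported). With 50 CPM added they numbered 3 for Reactivated over EDG9.5 (15 as reported) and 4 for E5.5 over Reactivated. Members at least 2-fold higher in 1 lineage numbered 2 in EDG7.5, 2 in EDG9.5 and 2 in E5.5 with 50 CPM added (5, 5 and 4 as reported), and in Reactivated 3 with 1 CPM added, 2 in thinned cells and 2 in UMIs per cell (1 as reported). UMIs per cell, an alternative chosen after seeing the data, turned the direction of Reactivated over EDG9.5 for epiblast Id2 (0.21), epiblast Smad1 (0.14) and endoderm Smad5 (0.15). Of the 15 pairs past 2-fold in that comparison 7 were higher and 8 lower, against 11 and 0 in UMIs per cell. Endoderm Id2 (0.65) and trophoblast Id3 (0.84) were under 2-fold there in thinned cells. So were epiblast Smad1 (-0.89), epiblast Smad5 (-0.37) and endoderm Smad5 (-0.77). Epiblast Smad6 (-1.88), endoderm Bmpr2 (-1.06) and trophoblast Bmpr2 (-1.04) were past 2-fold in thinned cells only by few UMIs. TMM scaling took epiblast Id2 (-0.94), epiblast Smad1 (-0.76) and endoderm Smad5 (-0.94) under 2-fold. No direction of a change past 2-fold turned under the other alternatives. Trophoblast Bmp4 from Reactivated to E5.5, 0.91 as reported, was 1.10 without the giant cell-like cluster, at Leiden resolution 0.5 and without doublet removal. Id2 there was -0.81 in all 3. At resolution 0.5, 446 E5.5 cells had no lineage and trophoblast held 3182 cells. Without doublet removal the numbers were 610 and 3199, so the 3 settings may drop many of the same cells. Id2 was also under 2-fold in thinned cells (-0.93), as a mean over cells (-0.90) and with 50 CPM added (-0.99). No paired analysis was possible because each stage is 1 library, and for the same reason no replicate could be left out. Depth limits Bmp2 outside endoderm, Bmpr2 in Reactivated and Smad6 in diapause endoderm, each resting on few UMIs.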
